A study of Mus musculus with 29 samples.

Results

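The genes followed here mark the macrophages of the spleen, and they were read through the B cell and tumour libraries of the Eμ-myc mouse: Csf1r, Emr1, Vcam1, Hmox1, Slc40a1, Spic, C1qa, C1qb, C1qc and Lyz2. They were chosen by symbol, 10 in number, with earlier results of these data known, and all 10 were found among the 21819 genes listed for these libraries. The same 10 symbols were found among the 21675 genes listed for fibroblasts of the same study.

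Macrophages of the splenic red pulp engulf aged red blood cells, break down their haem and return the iron to the blood. Csf1r is the receptor for the growth factors on which macrophages depend, and Emr1 encodes the surface protein F4/80. Vcam1 is an adhesion molecule that red pulp macrophages carry along with endothelial and stromal cells. Hmox1 encodes haem oxygenase, which opens the haem ring, and Slc40a1 encodes ferroportin, which exports the iron. Spic is the transcription factor on which red pulp macrophages depend. C1qa, C1qb and C1qc encode the chains of the complement component C1q, which macrophages secrete. Lyz2 encodes lysozyme M, which monocytes and neutrophils make as well as macrophages.

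Tumours were taken from lymph nodes of Eμ-myc transgenic mice and pressed into cell suspensions with no purification (Tg_lymphnode, n = 3, age not given). B cells were enriched with B220 beads from spleens of Eμ-myc transgenic mice (Tg_spleen, n = 4) and of wild-type mice (WT_spleen, n = 4), all on the C57BL/6 background and 6 to 8 weeks old. The transgene drives Myc from an enhancer of the immunoglobulin locus, which works in the B lineage. The study also holds 3T9 fibroblasts carrying MycER, a Myc protein switched on by 4-hydroxytamoxifen (OHT), at 0 h with ethanol and after 4, 8 and 16 h of OHT (n = 4 each), with 1 library of newly made RNA each at 4 and 0 h. RNA was sequenced after removal of ribosomal RNA. Nothing in the labels says whether libraries of a group came from separate mice, so p-values measure the spread between these libraries, which may be technical.

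Macrophages were not the cells collected from these spleens. The values below are RNA levels of genes that mark macrophages, in preparations enriched for B cells or in unpurified tumour. Which cells the RNA came from was not tested. In such bulk samples, fewer cells of a type and less RNA per cell cannot be told apart. The purification differed between the lymph node and spleen groups, so tissue, tumour and purification cannot be told apart in the comparisons that use Tg_lymphnode.

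The values are FPKM as deposited, that is fragments scaled by gene length and library size, and no counts were given. The spacing of low values places the denominators at 0.82 to 1.47 M reads, which with gene lengths from a later annotation puts the fewest reads behind a gene at 35, for Hmox1 in Tg_lymphnode replicate 3. Myc had 1759.4 to 2178.8 FPKM in Tg_lymphnode, 1017.4 to 2407.9 FPKM in Tg_spleen and 190.7 to 273.3 FPKM in WT_spleen, so the transgenic libraries stood above each wild-type one. The library labelled Tg_lymphnode replicate 3 went against a B cell origin: the 8 B cell genes summed to 1705.1 FPKM, against 18548.1 and 20096.5 FPKM in replicates 1 and 2, while Cd4 was at 9468.2, Cd8b1 at 7614.6 and Siglech at 2654.8 FPKM. Counts of called genes in the tumours are given with and without it, as are the ranges of the fold changes of the 10 genes. The 6 marker genes of salivary gland and pancreas summed to 2588 to 11855 FPKM in Tg_lymphnode, 1 to 9.6 FPKM in Tg_spleen and 6.1 to 63 FPKM in WT_spleen. In the spleen libraries Rpph1, the RNA of ribonuclease P, lay above 400000 FPKM in Tg_spleen replicates 2 and 3 and WT_spleen replicates 1 and 3, and below it in the other 4, while the 3 tumours lay above it.

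Promoter sequences from RefSeq (GRCm38.p6) were matched for 4 of the 10 genes, and they are shown because they come from genes whose levels moved in opposite directions in the tumours. Each is the 250 bases before the start of the gene, written 5′ to 3′ on the minus strand, on which all 4 genes lie. They cover chr10:88683024-88683273 for Spic, chr4:136886201-136886450 for C1qb, chr4:136892915-136893164 for C1qc and chr10:117282273-117282522 for Lyz2. Capitals mark matches on either strand to AGGAAGT, a core motif of PU.1 and other ETS factors, and to TGCTGAG, a motif of Maf factors.
Spic: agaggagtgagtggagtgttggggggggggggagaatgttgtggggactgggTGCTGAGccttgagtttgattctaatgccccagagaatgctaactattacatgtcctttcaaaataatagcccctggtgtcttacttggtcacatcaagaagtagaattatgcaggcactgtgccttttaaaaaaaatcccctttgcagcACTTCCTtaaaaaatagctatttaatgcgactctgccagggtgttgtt
C1qb: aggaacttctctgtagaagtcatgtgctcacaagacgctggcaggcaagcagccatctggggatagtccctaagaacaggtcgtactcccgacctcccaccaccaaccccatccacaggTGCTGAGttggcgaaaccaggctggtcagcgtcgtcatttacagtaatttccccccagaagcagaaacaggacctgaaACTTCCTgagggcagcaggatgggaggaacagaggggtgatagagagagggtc
C1qc: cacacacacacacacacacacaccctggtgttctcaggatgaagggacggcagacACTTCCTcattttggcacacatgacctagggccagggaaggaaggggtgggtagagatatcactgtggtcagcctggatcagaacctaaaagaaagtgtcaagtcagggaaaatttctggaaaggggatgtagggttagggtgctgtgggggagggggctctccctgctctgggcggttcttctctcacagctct
Lyz2: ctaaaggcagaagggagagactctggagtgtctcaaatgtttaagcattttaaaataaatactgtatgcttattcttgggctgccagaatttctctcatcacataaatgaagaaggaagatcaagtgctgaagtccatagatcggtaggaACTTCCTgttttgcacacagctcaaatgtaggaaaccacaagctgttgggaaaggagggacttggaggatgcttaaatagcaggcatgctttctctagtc
AGGAAGT occurred once in each of the 4 sequences, each time on the opposite strand, so that it reads ACTTCCT above. Counted back from the start, its first base lay at position -48 in Spic, -53 in C1qb, -195 in C1qc and -100 in Lyz2. TGCTGAG occurred once in Spic, at position -198, and once in C1qb, at position -131, and not in the windows of C1qc and Lyz2. The motifs do not overlap here, and of 32851 promoters, 7.69% held AGGAAGT and 6.21% held TGCTGAG. A match describes these letters and is not a measured binding site.

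The first question was how the macrophage genes of the lymph node tumours compared with those of wild-type spleen B cell preparations. In the tumours, 9 of the 10 genes were lower and Lyz2 was higher, and all 10 passed the test, a limma fit across all 14758 genes tested with Benjamini-Hochberg adjustment at 0.05. Of all genes tested, 38.1% were called, 17.7% lower and 20.3% higher. Hmox1, Slc40a1, the red pulp factor Spic and Emr1, the gene of F4/80, were lower by 10.7 to 17.7 times. Csf1r, Vcam1 and the C1q chains were lower by 3.69 to 5.53 times. The groups did not overlap for any of the 10 genes, while 21.4% of all genes lay wholly lower and 24% wholly higher in Tg_lymphnode. Without tumour replicate 3 all 10 still passed, with log2 fold changes between -4.20 for Slc40a1 and -1.75 for C1qb for the 9 lower genes, against -4.14 and -1.88 with it. The share of all genes called without that library is not given here.

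**Figure D1:**
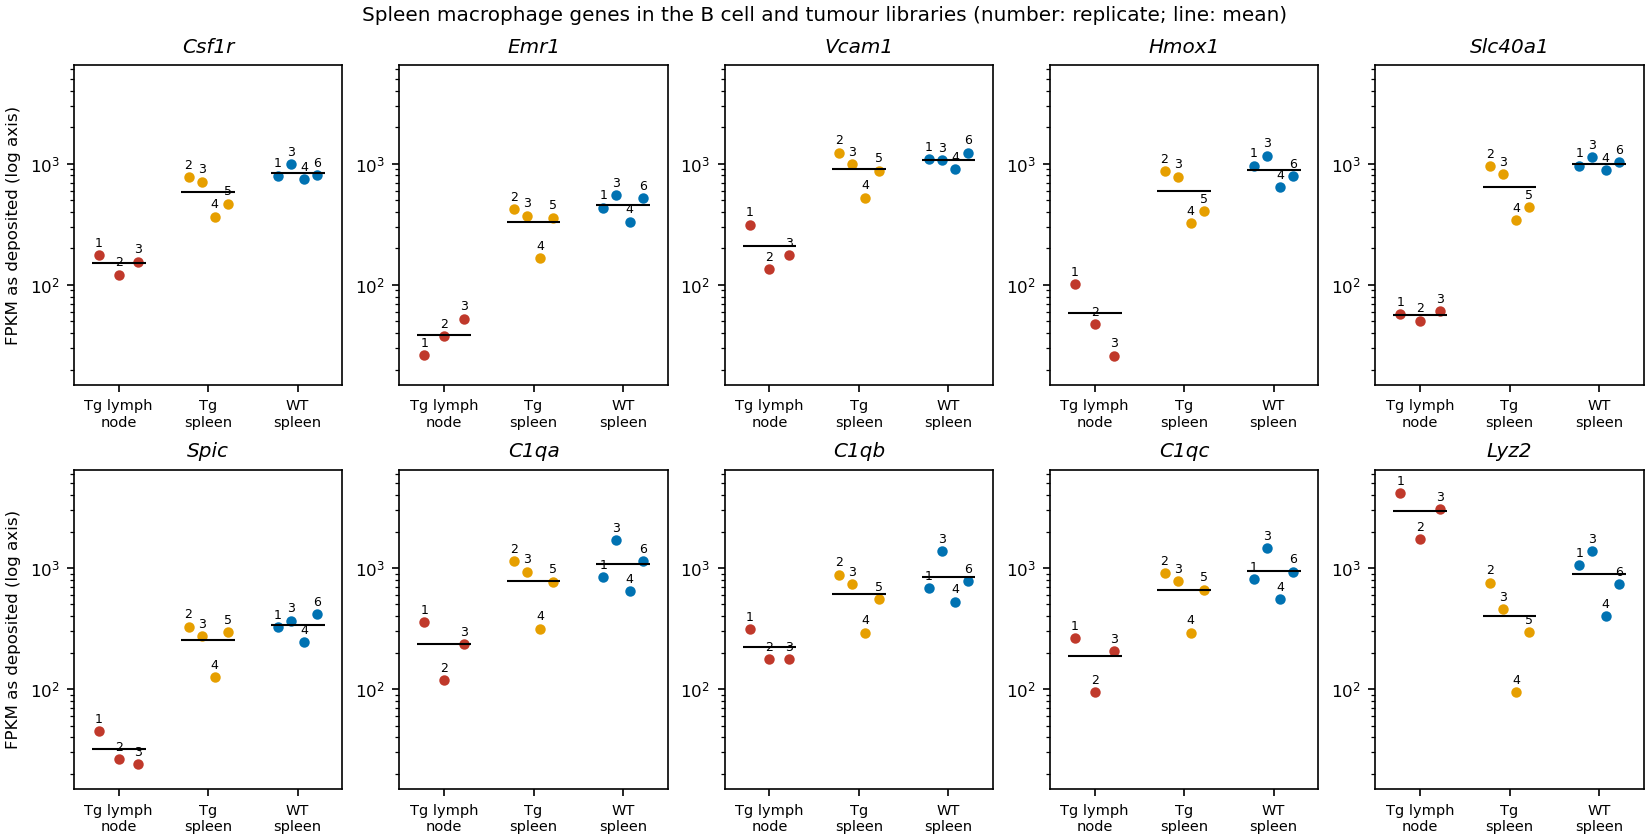
FPKM as deposited, on a log axis, of the 10 genes in each library of the Tg_lymphnode, Tg_spleen and WT_spleen groups. Each point is a library with its replicate number, and lines are group means. For 9 genes the tumour points lie below every wild-type point, and for Lyz2 they lie above, at 1730 to 4148.8 FPKM, against 399.3 to 1369.5 FPKM in WT_spleen.

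The receptor genes came first. Csf1r had 176.4, 121.6 and 155.5 FPKM in Tg_lymphnode replicates 1 to 3, against 778.5, 709.8, 365.8 and 468.8 FPKM in Tg_spleen replicates 2 to 5 and 799.6, 988.8, 744 and 801.6 FPKM in WT_spleen replicates 1, 3, 4 and 6. The tumours were the lowest libraries, replicates 3, 4 and 5 of Tg_spleen stood between, and replicate 2 of Tg_spleen lay within the wild-type range. In Tg_lymphnode, Csf1r was 5.53 times lower than in WT_spleen (log2 fold change -2.47, SE 0.17, limma adjusted p = 9.55e-05).

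Emr1 had 26.4, 37.7 and 52.7 FPKM in Tg_lymphnode, against 419.2, 372.2, 165.8 and 359 FPKM in Tg_spleen and 435.2, 551, 333 and 521.8 FPKM in WT_spleen, in the same order of replicates, which holds throughout. Replicate 1, the tumour with the most Csf1r, had the least Emr1, and no tumour reached a spleen library. The gene was 11.9 times lower in Tg_lymphnode than in WT_spleen (log2 fold change -3.58, SE 0.27, limma adjusted p = 0.000116).

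Vcam1 had 314.7, 135 and 175.6 FPKM in Tg_lymphnode, against 1232.6, 988.4, 524.3 and 876.5 FPKM in Tg_spleen and 1096.7, 1063.6, 902.3 and 1231.8 FPKM in WT_spleen. Replicate 1 was the highest tumour, still below each spleen library. Replicates 4 and 5 of Tg_spleen lay below the wild-type libraries and the others among or just above them. Vcam1 was 5.45 times lower in Tg_lymphnode than in WT_spleen (log2 fold change -2.45, SE 0.28, limma adjusted p = 0.00051).

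The enzyme and the exporter of iron recycling showed the largest differences of the 10. Hmox1 had 101, 47.2 and 26 FPKM in Tg_lymphnode, against 867.1, 783.4, 323 and 405.3 FPKM in Tg_spleen and 961.2, 1165.6, 642 and 788 FPKM in WT_spleen. Replicate 3 of the tumours, whose markers go against a B cell origin, was the lowest. Hmox1 was 17.2 times lower in Tg_lymphnode than in WT_spleen (log2 fold change -4.11, SE 0.43, limma adjusted p = 0.000405), and its log2 fold change was -3.64 without that library.

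Slc40a1 had 57.1, 50.6 and 60.9 FPKM in Tg_lymphnode, against 956.8, 824.5, 340.7 and 435.5 FPKM in Tg_spleen and 961.7, 1129, 879.9 and 1036.4 FPKM in WT_spleen. The 3 tumours lay close together and far below the spleens, and Tg_spleen replicates 3 to 5 lay below the wild-type range. Slc40a1 was 17.7 times lower in Tg_lymphnode than in WT_spleen (log2 fold change -4.14, SE 0.14, limma adjusted p = 2.13e-05).

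Spic, the transcription factor of the set, had 44.8, 26.4 and 24.1 FPKM in Tg_lymphnode, against 328.1, 274, 126.1 and 294.5 FPKM in Tg_spleen and 323.7, 368.2, 244.8 and 416.9 FPKM in WT_spleen. The tumours lay below each spleen library, the lowest of which was Tg_spleen replicate 4. Spic was the gene with the lowest mean in each of the 3 groups. Spic was 10.7 times lower in Tg_lymphnode than in WT_spleen (log2 fold change -3.42, SE 0.27, limma adjusted p = 0.000126).

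The C1q genes, which lie side by side on chromosome 4 in the order C1qb, C1qc and C1qa, showed smaller differences and a wider spread. C1qa had 356.6, 118.1 and 234.7 FPKM in Tg_lymphnode, against 1133.7, 931.1, 315.2 and 771.9 FPKM in Tg_spleen and 838.4, 1704.4, 643.2 and 1134.7 FPKM in WT_spleen. C1qb had 312.5, 175.9 and 176.5 FPKM in Tg_lymphnode, against 882.2, 734.4, 292.8 and 553.5 FPKM in Tg_spleen and 684.3, 1383.5, 528.1 and 775.3 FPKM in WT_spleen. C1qc had 263.1, 94.9 and 205.4 FPKM in Tg_lymphnode, against 901.1, 775.7, 291.9 and 662.6 FPKM in Tg_spleen and 805.7, 1456.2, 552.8 and 931.8 FPKM in WT_spleen. For C1qa and C1qb, tumour replicate 1 lay above the lowest Tg_spleen library, and for C1qc the groups stayed apart. Relative to WT_spleen, the log2 fold changes in Tg_lymphnode were -2.23 for C1qa, -1.88 for C1qb and -2.35 for C1qc (SE 0.44, 0.35 and 0.42, limma adjusted p = 0.00603, 0.00461 and 0.00397).

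The 3 chains are assembled together in the protein, and their RNAs kept near one ratio. C1qc was at 0.738 to 0.875 times C1qa in Tg_lymphnode, 0.795 to 0.926 times in Tg_spleen and 0.821 to 0.961 times in WT_spleen. C1qb was at 0.752 to 1.49 times C1qa in Tg_lymphnode, 0.717 to 0.929 times in Tg_spleen and 0.683 to 0.821 times in WT_spleen. The 1.49 came from tumour replicate 2.

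Lyz2 went the other way. It had 4148.8, 1730 and 3052.3 FPKM in Tg_lymphnode, against 755.8, 455.5, 94.2 and 296.7 FPKM in Tg_spleen and 1060.6, 1369.5, 399.3 and 736.3 FPKM in WT_spleen. Each tumour lay above each spleen library, and Lyz2 was the gene with the highest mean of the 10 in the tumours, against the fifth in WT_spleen and the eighth in Tg_spleen. Lyz2 was 3.46 times higher in Tg_lymphnode than in WT_spleen (log2 fold change 1.79, SE 0.46, limma adjusted p = 0.0175). Without tumour replicate 1 the call was lost (adjusted p = 0.0569), and without replicate 3 it held (log2 fold change 1.73, adjusted p = 0.0444). Lyz1, the neighbouring lysozyme P gene, had 176.3, 64.1 and 222 FPKM in Tg_lymphnode, against 15.9, 9.8, 3.6 and 8 FPKM in Tg_spleen and 29.6, 51.9, 14.1 and 21 FPKM in WT_spleen. Their transcripts share 96.0% of 1262 aligned bases, so reads could be split between the genes and both values are uncertain.

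Markers of other cell types that make lysozyme were read beside it. The 13 genes of monocytes and neutrophils summed to 1278, 1806 and 11006 FPKM in Tg_lymphnode replicates 1 to 3, against 319.2 to 1184 FPKM in Tg_spleen and 495.5 to 1532 FPKM in WT_spleen, and none of these genes was at 0 in a whole group. None of the 13 was called in Tg_lymphnode against WT_spleen by limma, and 0 had an unadjusted p under 0.05, while 2 were called higher without tumour replicate 3. Most of the sum in replicate 3 was Ly6c2, at 704.5, 235.8 and 10642.8 FPKM in Tg_lymphnode replicates 1 to 3, against 137.5 to 299 FPKM in Tg_spleen and 218.7 to 454.8 FPKM in WT_spleen. It encodes a surface protein of monocytes that some T cells and plasmacytoid dendritic cells also carry, and its reads may be split with its near-identical neighbour Ly6c1. The other 12 genes summed to 573, 1569.9 and 363.5 FPKM in Tg_lymphnode, against 181.7 to 885.1 FPKM in Tg_spleen and 258.1 to 1313.1 FPKM in WT_spleen. The part of monocytes and neutrophils in the Lyz2 level was not tested. T cell genes summed to 531.7, 1294 and 17657 FPKM in Tg_lymphnode, against 96 to 268.4 FPKM in Tg_spleen and 354.4 to 578.3 FPKM in WT_spleen, and dendritic cell genes to 71.2, 114.9 and 1773 FPKM in Tg_lymphnode, against 53.7 to 165.2 FPKM in Tg_spleen and 136.5 to 317.8 FPKM in WT_spleen. Red blood cell genes summed to 299.3 to 419.7 FPKM in Tg_lymphnode, 45.8 to 90.3 FPKM in Tg_spleen and 102 to 219 FPKM in WT_spleen. The highest sums of T and dendritic cell genes were thus those of replicate 3. Most of its T cell sum was Cd4 and Cd8b1, at 9468.2 and 7614.6 FPKM, so that sum says little about the other T cell genes. The T cell sum of replicate 2 also lay above each spleen library, while its dendritic cell sum did not. Plasmacytoid dendritic cell genes summed to 582.2, 1080.5 and 11120.7 FPKM in Tg_lymphnode replicates 1 to 3. Their sums were 413.9 to 521.6 FPKM in Tg_spleen and 361.2 to 586.3 FPKM in WT_spleen.

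Set against Tg_spleen instead, a comparison that shares the tumour libraries with the one above, 7 of the 10 genes passed the test. In Tg_lymphnode 6 were lower, against 2.39% of all 14692 genes tested, and Lyz2 was higher, against 3.56%, with 5.95% called in either direction. For 7 genes the tumours lay wholly below Tg_spleen and for Lyz2 wholly above, against 10.6% and 11.8% of all genes. Slc40a1 was 10.4 times lower (log2 fold change -3.37, SE 0.36) and Hmox1 10.8 times lower (-3.44, SE 0.50), with limma adjusted p = 0.00208 and 0.00811. Emr1 was at -3.03, Spic at -2.96, Vcam1 at -2.14 and Csf1r at -1.89 on the log2 scale, with adjusted p of 0.0036, 0.00421, 0.0151 and 0.00988 in the limma fit. Lyz2 was 8.92 times higher (log2 fold change 3.16, SE 0.65, adjusted p = 0.03). The calls of Emr1, Hmox1, Slc40a1, Spic and Csf1r held when any single library was left out.

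The C1q chains did not pass in this comparison, at log2 fold changes of -1.73 for C1qa, -1.41 for C1qb and -1.81 for C1qc (limma adjusted p = 0.0847, 0.0736 and 0.0579). Without Tg_spleen replicate 4, their lowest spleen library, the 3 passed with adjusted p of 0.0321, 0.0242 and 0.0253. Lyz2 kept its call in 2 of the 7 fits that left out a library and lost it without tumour replicate 3 (adjusted p = 0.0505), and Vcam1 kept it in 4 of 7, losing it without Tg_spleen replicate 3 or 5 or Tg_lymphnode replicate 2. Without tumour replicate 3, 6 genes were called, all lower, with log2 fold changes between -3.43 for Slc40a1 and -1.92 for Csf1r. The shares of all genes called in these fits that left out a library are not given here.

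**Figure D2:**
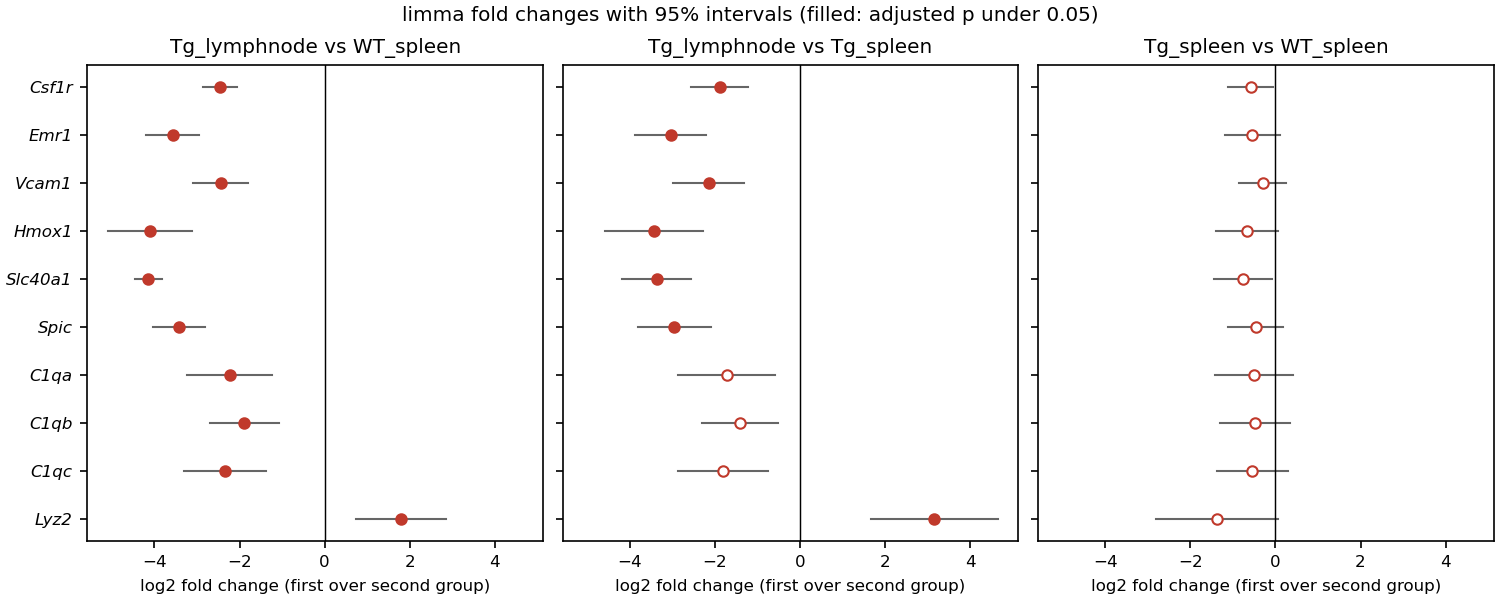
Log2 fold changes of the 10 genes from limma, with 95% intervals, in Tg_lymphnode against WT_spleen, Tg_lymphnode against Tg_spleen and Tg_spleen against WT_spleen. Filled points passed an adjusted p of 0.05, and their number is 10, 7 and 0 in the 3 panels.

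The next comparison asked whether the macrophage genes differed between B cell preparations of transgenic and wild-type spleens. None of the 10 passed the limma test, while 27.9% of the 14021 genes tested did, with 12.2% called lower and 15.7% higher. Each fold change was nonetheless negative, as for 53.2% of all genes, between -0.30 for Vcam1 and -1.37 for Lyz2 on the log2 scale, with a median of -0.54. The groups overlapped for each of the 10, while 14.7% of all genes lay wholly lower and 16.9% wholly higher in Tg_spleen. At an unadjusted p under 0.05, 2 of the 10 were lower, Csf1r and Slc40a1, against 20.1% of all genes in that direction. Csf1r averaged 581 ± 195 FPKM in Tg_spleen and 834 ± 107 FPKM in WT_spleen (SD, n = 4 each), with a limma adjusted p of 0.0916, and Slc40a1 averaged 639 ± 298 FPKM in Tg_spleen and 1002 ± 106 FPKM in WT_spleen, with an adjusted p of 0.0838. Lyz2 averaged 401 ± 279 FPKM in Tg_spleen and 891 ± 418 FPKM in WT_spleen (adjusted p = 0.135 in the limma fit).

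The spread among Tg_spleen libraries was shared by the genes: replicate 2 was the highest and replicate 4 the lowest for 10 of 10. In WT_spleen replicate 4 was the lowest for 10 of 10 and replicate 3 the highest for 8. Without Tg_spleen replicate 2, Csf1r, Hmox1 and Slc40a1 passed (log2 fold changes -0.74, -0.89 and -1.01, limma adjusted p = 0.0263, 0.0466 and 0.0164). Without Tg_spleen replicate 4 none passed and the differences were smaller, at -0.38 for Csf1r, -0.51 for Slc40a1, -0.06 for Vcam1 and -0.11 for C1qa, against -0.58, -0.77, -0.30 and -0.51 with all libraries. With libraries weighted by their quality none passed either, although more of the 14021 genes were called than the 27.9% of the unweighted fit. Slc40a1 was then at -0.31 and Csf1r at -0.26. The shares of all genes called without Tg_spleen replicate 2 or 4 are not given here. Within the libraries above 400000 FPKM of Rpph1 (2 Tg_spleen and 2 WT_spleen) none of the 10 was called, against 10.0% of genes, with 1, Lyz2, at an unadjusted p under 0.05, and Vcam1 was at 0.031. Within those below it (2 and 2), Csf1r, Hmox1 and Slc40a1 were called (-0.90, -0.97 and -1.31, adjusted p = 0.0332, 0.0281 and 0.013), against 23.4% of genes.

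Among markers of other cell types, some were lower in Tg_spleen: 4 of 6 natural killer cell genes, 4 of 5 plasmacytoid dendritic cell genes, 3 of 6 dendritic cell genes and 2 of 9 T cell genes were called, and none was called higher. Of all genes tested, 12.2% were called lower and 15.7% higher. The natural killer cell genes summed to 44.2 to 333.5 FPKM in Tg_spleen and 349 to 666.2 FPKM in WT_spleen. The 10 macrophage genes summed to 2840 to 8255 FPKM in Tg_spleen and 5869 to 11180 FPKM in WT_spleen. The 8 B cell genes summed to 24394 to 36721 FPKM in Tg_spleen and 38005 to 42457 FPKM in WT_spleen, and 3 of the 8 were called lower. Whether these cell types had a part in the macrophage values was not tested.

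To ask whether the genes changed in step with each other, each was divided by Csf1r in the same library. Slc40a1 was at 0.324, 0.416 and 0.392 times Csf1r in Tg_lymphnode replicates 1 to 3, against 0.929 to 1.23 times in Tg_spleen and 1.14 to 1.29 times in WT_spleen. Hmox1 was at 0.573, 0.388 and 0.167 times Csf1r in Tg_lymphnode, against 0.865 to 1.11 times in Tg_spleen and 0.863 to 1.20 times in WT_spleen. The tumours thus had less RNA of the haem enzyme and of the iron exporter per unit of Csf1r than each spleen library.

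Spic and Emr1 were lower in the same way. Spic was at 0.254, 0.217 and 0.155 times Csf1r in Tg_lymphnode, against 0.345 to 0.628 times in Tg_spleen and 0.329 to 0.520 times in WT_spleen. Emr1 was at 0.150, 0.310 and 0.339 times in Tg_lymphnode, against 0.453 to 0.766 times in Tg_spleen and 0.448 to 0.651 times in WT_spleen. Lyz2 was at 23.5, 14.2 and 19.6 times Csf1r in Tg_lymphnode, against 0.971, 0.642, 0.258 and 0.633 times in Tg_spleen and 1.33, 1.39, 0.537 and 0.919 times in WT_spleen. For these 5 genes the ratio did not overlap between tumours and spleens. The share of all genes without overlap in this ratio is not given here, and Csf1r itself was lower in the tumours.

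An exact two-sided permutation test of the log2 ratio over libraries gave p = 0.0286 for each of the 5 genes in both tumour comparisons, the smallest value these group sizes allow. Adjusted over 9 genes and 3 comparisons, none passed (adjusted p = 0.0771). With p at that floor, a pass needed many more of the ratios to reach it, so this failure cannot decide the question. A limma fit of the ratio to Csf1r across all genes, added after the data were seen, called the same 5 in both tumour comparisons, 4 lower and Lyz2 higher. Of all genes, 0.542% were called lower and 90.2% higher against WT_spleen, and 0.395% and 86.4% against Tg_spleen, since Csf1r itself was lower in the tumours. Lyz2 is thus in the direction of most genes in this ratio, and the 4 lower genes are not. On that scale Slc40a1 differed by -1.67 against WT_spleen, Hmox1 by -1.64, Emr1 by -1.11 and Spic by -0.95 (adjusted p = 1.24e-05, 0.00146, 0.00429 and 0.00469 in the limma fit).

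Vcam1 and the C1q chains did not pass relative to Csf1r in either tumour comparison. Against WT_spleen the difference in the log2 ratio was 0.02 for Vcam1 (95% interval -0.53 to 0.57), 0.24 for C1qa (-0.46 to 0.93), 0.58 for C1qb (-0.03 to 1.19) and 0.12 for C1qc (-0.55 to 0.78). In Tg_spleen against WT_spleen none of the 9 ratios passed either test, against 1.36% of all genes called lower and 20.5% higher by limma, and the smallest unadjusted exact p was 0.114. The differences lay between -0.79 for Lyz2 and 0.28 for Vcam1.

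**Figure D3:**
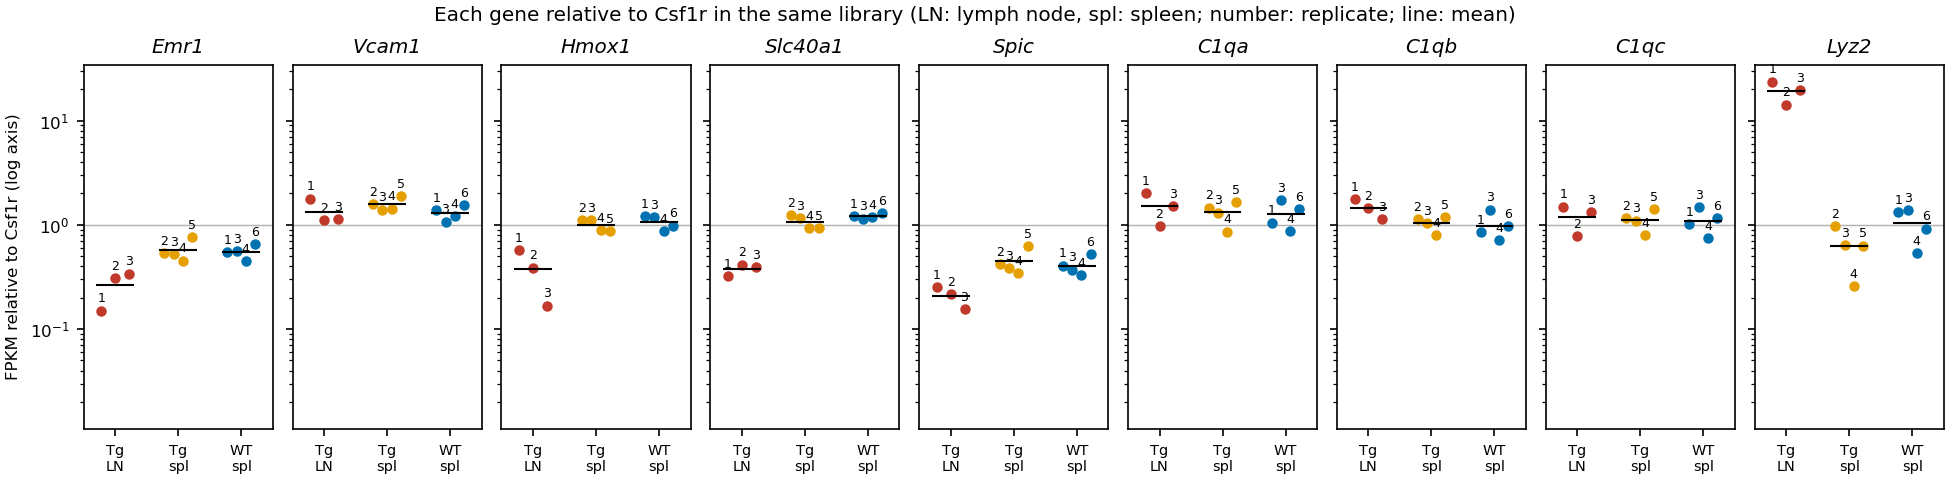
FPKM of 9 genes divided by that of Csf1r in the same library, on a log axis, for Tg_lymphnode, Tg_spleen and WT_spleen. Points are libraries with their replicate number and lines are means. The tumour points lie below the spleen points for Emr1, Hmox1, Slc40a1 and Spic, overlap them for Vcam1, C1qa, C1qb and C1qc, and lie above them at 14.2 to 23.5 for Lyz2.

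Genes with the most similar profile were named by the smallest root mean square difference of centred log2(FPKM + 0.5) over the 11 libraries, among 11135 genes with a mean of at least 5 FPKM. For Spic these were Slc16a9 (difference 0.11), Trf (0.20), Hfe (0.26), Marcks (0.27) and Ptgs1 (0.30). Trf encodes transferrin, the iron carrier of the blood, and averaged 98.9 FPKM in Tg_lymphnode, 845 FPKM in Tg_spleen and 1071 FPKM in WT_spleen. Hfe encodes the protein altered in hereditary haemochromatosis. For Csf1r they were Epb4.1l3 (0.19), Swap70 (0.23), Frmd4b (0.24), Pilra (0.24) and Kcna2 (0.26), and for the mean of the C1q chains Cfp (0.16), Serpinb6a (0.26), Pilra (0.35), Rnf130 (0.40) and Clec4n (0.40). Cfp encodes properdin, which stabilises the enzyme of the alternative complement pathway.

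For Lyz2 the nearest profiles were Marco (0.40), Pla2g2d (0.44), Lyz1 (0.47), Clec7a (0.58) and Ms4a6d (0.58). Marco, a scavenger receptor of marginal zone macrophages, averaged 102 FPKM in Tg_lymphnode, 22.1 FPKM in Tg_spleen and 30.7 FPKM in WT_spleen. Clec7a encodes the receptor Dectin-1 and averaged 96.1 FPKM in Tg_lymphnode, 29.1 FPKM in Tg_spleen and 54.0 FPKM in WT_spleen. Of the other 9 macrophage genes, the nearest to Lyz2 was C1qb, which ranked 9842 when placed among the genes outside the set.

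Other genes of these pathways were read from lists. Beside the counts below stand the shares of all genes called. In Tg_lymphnode these were 17.7% lower and 20.3% higher against WT_spleen, and 2.39% and 3.56% against Tg_spleen. In Tg_spleen against WT_spleen they were 12.2% lower and 15.7% higher. Of 22 macrophage receptor and surface genes, 13 were lower and 3 higher in Tg_lymphnode than in WT_spleen, with a median log2 fold change of -1.91, against 0.05 over all genes. Mrc1, the mannose receptor of red pulp macrophages, averaged 24.6 ± 10.1 FPKM in Tg_lymphnode (n = 3) and 410 ± 35 FPKM in WT_spleen (SD, n = 4), a log2 fold change of -4.12. Treml4, a receptor-like protein of spleen myeloid cells, was at 9.67 ± 3.73 FPKM in Tg_lymphnode and 204 ± 42.1 FPKM in WT_spleen. Fcna, ficolin A, was at 31.4 ± 12.4 FPKM in Tg_lymphnode and 703 ± 216 FPKM in WT_spleen. These 3 had the smallest adjusted p of the list, from 9.55e-05 to 0.000159 in the limma fit. The 3 that rose, named after their values were seen, were Cd209b, Marco and Msr1, whose products bind microbes and modified lipoproteins, at log2 fold changes of 3.94, 1.78 and 1.39.

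Against Tg_spleen, 7 of the 22 were lower and 2 higher in Tg_lymphnode, with Fcna at -4.52, Mrc1 at -3.78 and Treml4 at -3.78 on the log2 scale (limma adjusted p = 0.000715, 0.00138 and 0.00369). Without tumour replicate 3 the counts were 16 lower and 3 higher against WT_spleen, and 9 lower and 2 higher against Tg_spleen. In Tg_spleen against WT_spleen 1 was lower, Mpeg1, which encodes perforin-2, at 335 ± 144 FPKM in Tg_spleen and 636 ± 113 FPKM in WT_spleen. Itgam, the CD11b chain, was higher, at 50.9 ± 4.43 FPKM in Tg_spleen and 34.2 ± 6.91 FPKM in WT_spleen (SD, n = 4 each, limma adjusted p = 0.0255 and 0.0369).

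Of 14 genes of haem and iron recycling beside Hmox1 and Slc40a1, 4 were lower and 3 higher in Tg_lymphnode than in WT_spleen. That was against 17.7% and 20.3% of all genes, with a median log2 fold change of -0.33 for the list. Hfe was at -2.94, the iron transporter of the phagosome Slc11a1 at -2.22, and the haem exporter gene Mfsd7b, now called Flvcr1, at 1.41 (limma adjusted p = 0.000141, 0.00027 and 0.00125). Against Tg_spleen the same 3 had the values -2.55, -1.51 and 0.98 (adjusted p = 0.00737, 0.0212 and 0.0256 in the limma fit). The list therefore did not move one way, and no gene in it had a fold change against WT_spleen as low as those of Hmox1 and Slc40a1. Without tumour replicate 3 the counts were 5 lower and 3 higher against WT_spleen, and 3 lower and 1 higher against Tg_spleen, against 2 and 2 with it.

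In Tg_spleen against WT_spleen, 3 of the 14 were higher and 1 lower, against 15.7% and 12.2% of all genes. The transferrin receptor gene Tfrc averaged 725 ± 229 FPKM in Tg_spleen and 255 ± 29.9 FPKM in WT_spleen. The iron importer gene Slc11a2 averaged 92.3 ± 25.6 FPKM in Tg_spleen and 58.3 ± 7.68 FPKM in WT_spleen, and Slc11a1 108 ± 26.5 FPKM in Tg_spleen and 175 ± 30.5 FPKM in WT_spleen (SD, n = 4 each, limma adjusted p = 0.00325, 0.0367 and 0.0311). The fourth was Mfsd7b, at a log2 fold change of 0.43 and named after its value was seen.

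Among 12 growth factors and transcription factors of macrophages, 5 were lower and none higher in Tg_lymphnode than in WT_spleen. Maf averaged 16.1 ± 2.24 FPKM in Tg_lymphnode and 61.3 ± 8.70 FPKM in WT_spleen and Pparg 7 ± 2.80 FPKM in Tg_lymphnode and 42.0 ± 12.9 FPKM in WT_spleen (SD, n = 3 and 4, limma adjusted p = 0.0007 and 0.00152). Maf encodes a transcription factor of mature macrophages, and Pparg a lipid-sensing nuclear receptor. Against Tg_spleen, 2 of the 12 were lower, among them Pparg at -2.38 (adjusted p = 0.0143 in the limma fit). Without tumour replicate 3, 7 were lower against WT_spleen and 2 against Tg_spleen. In Tg_spleen against WT_spleen, Bach1, a haem-sensing repressor of Hmox1, and Irf8, a factor of B cells and myeloid cells, were lower by 0.48 and 0.67 on the log2 scale (limma adjusted p = 0.0275 and 0.0289).

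Of 17 other complement genes tested, 10 were higher and 4 lower in Tg_lymphnode than in WT_spleen, and 10 were higher and 2 lower than in Tg_spleen. Without tumour replicate 3 the counts were 10 and 4 against WT_spleen, and 11 and 1 against Tg_spleen. Cfp, the gene nearest in profile to the C1q chains, was among those lower than in WT_spleen, at a log2 fold change of -2.10 (limma adjusted p = 0.00119). C6, of the membrane attack complex, averaged 0.967 ± 0.208 FPKM in Tg_lymphnode and 116 ± 17.5 FPKM in WT_spleen. Serping1, the C1 inhibitor, was at 65.7 ± 3.86 FPKM in Tg_lymphnode and 1 ± 0.476 FPKM in WT_spleen. Cr2, a complement receptor of B cells, was at 80.3 ± 44.1 FPKM in Tg_lymphnode and 2635 ± 338 FPKM in WT_spleen. Their log2 fold changes were -6.31, 5.52 and -5.18 (limma adjusted p = 6.98e-05, 9.29e-05 and 9.55e-05). C3, the central component, was at 605 ± 243 FPKM in Tg_lymphnode and 26.8 ± 16.6 FPKM in Tg_spleen (log2 fold change 4.62, limma adjusted p = 0.00368).

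Stromal genes were read beside them. The 10 genes of stroma and endothelium summed to 1093 to 1493 FPKM in Tg_lymphnode, 503.8 to 825.4 FPKM in Tg_spleen and 1043 to 1212 FPKM in WT_spleen, with 6 called higher and 2 lower against WT_spleen, and 8 higher and 2 lower without tumour replicate 3. Most of the sum in WT_spleen was Pecam1, at 1121 ± 75.9 FPKM, against 539 ± 244 FPKM in Tg_lymphnode. The sums therefore say little about the other genes of this list. Dcn, decorin, a fibroblast product, averaged 109 ± 11.7 FPKM in Tg_lymphnode and 0.275 ± 0.320 FPKM in WT_spleen. The part of stroma in the complement values was not tested. Of the 8 genes that bind Vcam1 or act in adhesion beside it, Madcam1 was higher in both tumour comparisons (log2 fold change 3.07 against WT_spleen and 3.69 against Tg_spleen), with limma adjusted p = 0.00746 and 0.00811. In Tg_spleen against WT_spleen, Cr2 was the 1 of 15 complement genes that was called, at -1.89 (adjusted p = 0.0213 in the limma fit).

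**Figure D4:**
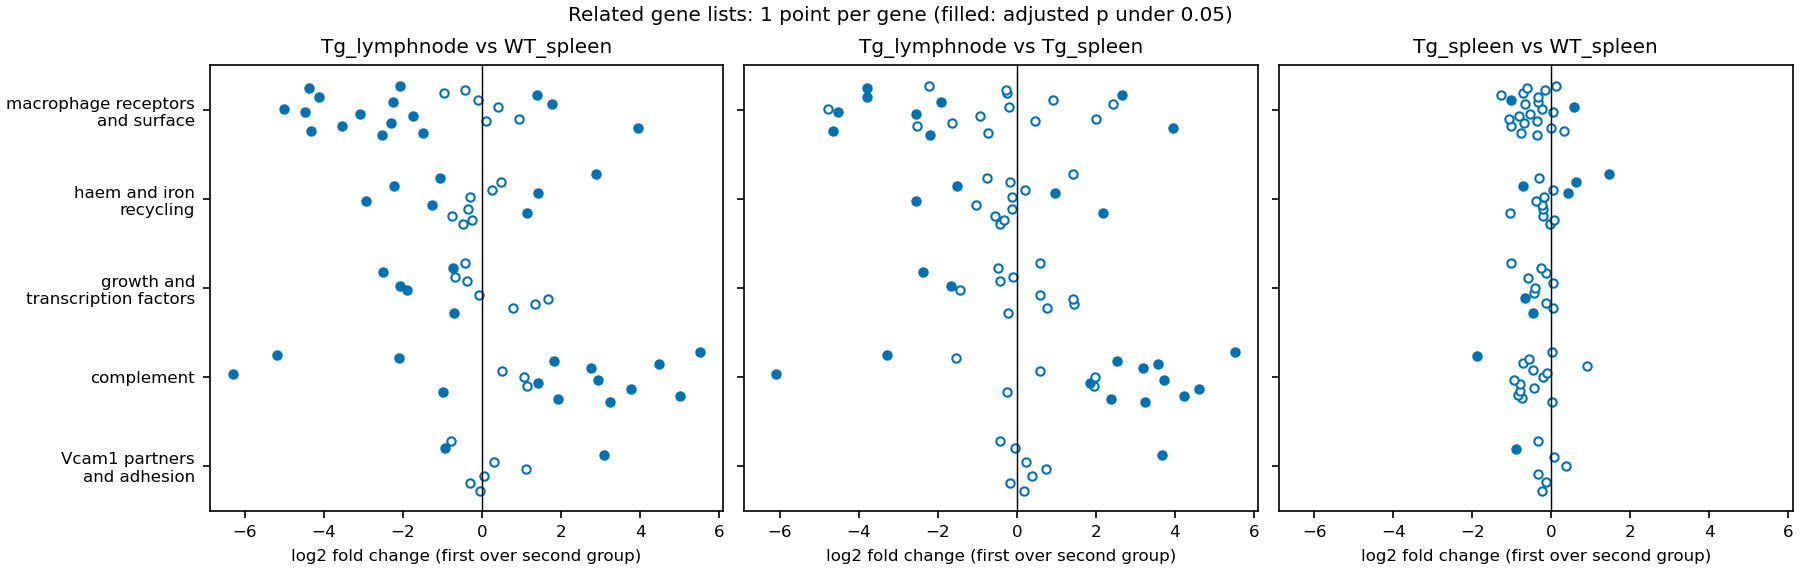
Log2 fold change of each gene in 5 lists around the macrophage genes, for Tg_lymphnode against WT_spleen, Tg_lymphnode against Tg_spleen and Tg_spleen against WT_spleen. Filled points passed an adjusted p of 0.05. Macrophage receptors lie mostly to the left in the tumour panels, with 13 lower and 3 higher against WT_spleen, and complement genes mostly to the right, with 10 higher and 4 lower.

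The fibroblasts were the last setting, and their values are on another scale, so no level is set against the B cell libraries. Over the 16 total RNA libraries Hmox1 was at 31.9 to 62.0 FPKM, Vcam1 at 19.0 to 35.4 FPKM and Csf1r at 1.37 to 4.56 FPKM. Slc40a1 was at 0.329 to 1.23 FPKM, and Spic and the 3 C1q chains stayed below 1 FPKM. Hmox1 averaged 44.5 ± 6.34 FPKM at 0 h, 54.6 ± 13.5 FPKM at 4 h, 46.5 ± 9.79 FPKM at 8 h and 51.2 ± 8.48 FPKM at 16 h (SD, n = 4 each), and no comparison between times was tested. In newly made RNA Hmox1 was at 10.2 FPKM at 4 h and 12.1 FPKM at 0 h, and Vcam1 at 9.82 FPKM at 4 h and 9.23 FPKM at 0 h, with 1 library each.

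Lyz2 and Emr1 were near 0 in fibroblasts, except in one library. Lyz2 was at 34.5 FPKM in OHT_0h replicate 4 and at 0 to 0.302 FPKM in the other 15. Emr1 was at 2.43 FPKM in that library and at 0 to 0.131 FPKM in the others. Csf1r, C1qb and C1qc were also highest there.

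**Figure D5:**
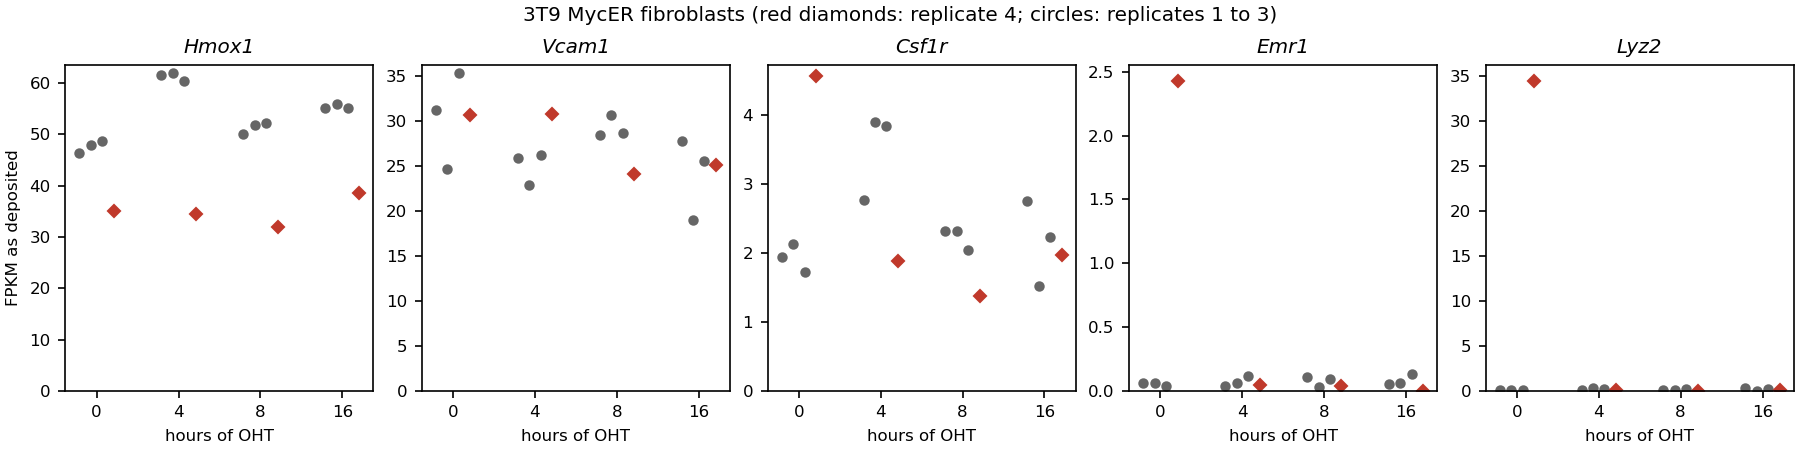
FPKM as deposited of Hmox1, Vcam1, Csf1r, Emr1 and Lyz2 in 3T9 MycER fibroblasts after 0, 4, 8 and 16 h of OHT, on linear axes that differ between panels. Red diamonds are replicate 4 and grey circles replicates 1 to 3. Replicate 4 is the lowest for Hmox1 at each time, and at 0 h it holds Lyz2 at 34.5 FPKM.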

How the data were processed

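RNA was sequenced from total RNA without ribosomal RNA, per the labels' protocols, in 11 B cell and tumour libraries and 18 fibroblast libraries. Values are FPKM per the file headers, deposited with 1 decimal for B cells and tumours and 3 for fibroblasts. Reads were aligned to mm9, and TopHat2 2.0.8, TopHat, SAMtools and HTSeq 0.5.3p9 are named, per the submitters' processing notes; the annotation and the rule of scaling are not given in the sources used here. The depth is therefore known only from the spacing of low values, and FPKM of this scale are read as relative levels.

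The members and lists were chosen with earlier results of these data known. A gene entered a fit when it reached 1 FPKM in a number of libraries equal to the size of the smaller group, and was fitted on log2(FPKM + 0.5) with limma 3.58.1 in R 4.3.3 (trend and robust), each comparison on its own 2 groups. P-values are two-sided and adjusted by Benjamini-Hochberg over all genes tested, with a call at 0.05. Fold changes are on that log2 scale, which understates the change of low genes. Beside the 10 members, the rule named up to 3 genes of each list with the smallest adjusted p, the 5 non-members closest in profile, Myc and Rpph1. Marker lists of other cell types were read beside them. Ratios to Csf1r were tested with an exact two-sided permutation test over libraries. Motifs were searched on both strands. Older symbols were matched through RefSeq names. C7 was not analysed here, and some genes that the rule picks are not reported here. The fit was tested on simulated data. Alternatives were other pseudocounts (0.1 and 1), filters, normalizations, array weights, a replicate block, an Rpph1 covariate or split at 400000 FPKM, and leaving out each library. Tables and figures were made in Python 3.11.15.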

Additional observations from a re-analysis of the deposited data

Results flagged for a closer look

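In groups of 4 libraries, a value whose gap to its nearest neighbour takes up nearly the whole range of the group was marked, by Dixon's criterion. This held for 10 of 60 groups examined, and chance marks about 1 in 20. Of the 10, 6 were in OHT_0h replicate 4. There Lyz2 was at 34.461 FPKM, against 0.093 to 0.097 FPKM in the other 3 libraries. Emr1 was at 2.429 FPKM, against 0.037 to 0.064 FPKM. Csf1r was at 4.561 FPKM, C1qb at 0.802 FPKM and C1qc at 0.707 FPKM, each the highest of its group, and Hmox1 was at 35.086 FPKM, the lowest. Of 22 macrophage receptor genes, 10 had their highest value of the 16 libraries in OHT_0h replicate 4, among them Mpeg1 at 8.494 FPKM, against 0.358 to 1.269 FPKM elsewhere. Their summed level there was 98.3 FPKM, within the 50.7 to 99.3 FPKM of the other libraries. Most of that sum was Axl, Cd14 and Cd68, at 46.3, 22.1 and 9.99 FPKM there. These lay within the ranges of the other libraries, 34.7 to 55.8, 9.53 to 24.1 and 3.85 to 13.4 FPKM. The sum therefore says little about the genes that were near 0 elsewhere.

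Hmox1 was marked as low in replicate 4 at the other times too, at 34.438 FPKM at 4 h, 31.881 FPKM at 8 h and 38.485 FPKM at 16 h, against at least 50.09 FPKM in replicates 1 to 3 at those times. C1qc in OHT_4h replicate 3 was at 0.561 FPKM, against 0.102 to 0.128 FPKM in the others.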

How the results depend on the processing

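The counts of the 10 genes called in the tumour comparisons stayed within 1.5 times under each alternative except the replicate block. Counts of the related and marker lists were taken for each list under each alternative. Against WT_spleen they moved by more than 1.5 times in 44 of these cases and not in 208. Against Tg_spleen they moved in 51 and not in 201. Of the 22 receptor genes, 9 were called against Tg_spleen, 14 with array weights and 15 with all 3 groups in 1 fit. In Tg_spleen against WT_spleen, where 0 of 10 were called, 1 was called with the replicate block (9 at an unadjusted p under 0.05, against 2 without it, and C1qa at -0.95, against -0.51), 2 with Rpph1 as a covariate, 3 within the libraries low in Rpph1 and 0 to 3 when a library was left out. The shares of all genes called with that covariate or with a library left out are not given here. With the replicate block, 0 were called in both tumour comparisons, where all 10 had an unadjusted p under 0.05 and the smallest adjusted p was 0.11 and 0.137. That block used the 2 numbers each pair of groups shares, leaves 1 residual degree of freedom and called 0 of all genes there, and 840 in Tg_spleen against WT_spleen. Same-numbered libraries deviated together by correlations of 0.13 and 0.14 in Tg_spleen against WT_spleen and of -0.02 to 0.06 in the tumour comparisons. Correlations of libraries with different numbers are not given here. In both spleen groups replicate 4 was the lowest for 10 of 10 genes, and Rpph1 was above 400000 FPKM in replicate 3 and below it in replicate 4. Whether the numbers pair libraries is therefore not known.

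In the ratio to Csf1r, 0 passed the permutation test, whose adjusted p could hardly fall under 0.05 at these group sizes. By limma 5 passed in both tumour comparisons. Ratios near 0 changed sign. That of Spic in the tumours, which was not near 0, changed sign with Emr1 as the denominator in place of Csf1r. It was then at 0.15 against WT_spleen and 0.079 against Tg_spleen, from -0.95 and -1.07. The lower Spic ratio in the tumours thus depends on the denominator. Vcam1 against Tg_spleen was at 0.89 with Emr1, from -0.25 with Csf1r. The ranges below are for ratios to Csf1r. Leaving out a library gave ranges, in Tg_spleen against WT_spleen, of -0.11 to 0.14 for Emr1, -0.065 to 0.24 for Spic, -0.092 to 0.26 for C1qa, -0.034 to 0.29 for C1qb and -0.13 to 0.19 for C1qc. They were -0.20 to 0.14 for Vcam1, -0.011 to 0.52 for C1qa and -0.067 to 0.40 for C1qc in Tg_lymphnode against WT_spleen, and -0.084 to 0.44 for C1qa and -0.11 to 0.36 for C1qc against Tg_spleen. Of the fold changes themselves, that of Vcam1 in Tg_spleen against WT_spleen changed sign, to 0.031, in the libraries high in Rpph1. The call of Lyz2 against WT_spleen was also lost with array weights (adjusted p = 0.068 in limma). The causes were not tested. The fewest estimated reads lay in a tumour for each gene except Lyz2, which had its fewest, 161, in Tg_spleen replicate 4. The denominators of the tumours, 0.82 to 0.89 M reads, were like those of WT_spleen replicates 1 and 3, at 0.82 and 0.83 M.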
